A study of Mus musculus with 5 samples.

Results

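The genes described here are 40 mouse genes of the unfolded protein response and of the integrated stress response, chosen as a list of symbols with every probe set that the array annotation gives to 1 of those symbols alone. They are 40 of 18193 genes named on the array, and they had 89 such probe sets. A further 2 probe sets were assigned to Phgdh together with another gene and were left out. RNA came from clones 1D, 11B, 20B, 30 and 42, 5 lines of progenitor cells of the heart, and each was run on 1 Affymetrix array. The clones share strain C67BL/6 (as the labels spell it), the left ventricle of mice aged 5 to 6 months as source, selection for the surface marker Sca-1, and no treatment in the labels. Each clone is a single line, picked with a cloning ring and subcloned by dilution, and it was measured once. There are no replicates, so the differences below carry no test and no check against the spread within a clone.

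Secretory and membrane proteins fold in the endoplasmic reticulum (ER), where chaperones hold unfinished chains and isomerases form their disulfide bonds. When unfolded chains pile up, the ER membrane sensors encoded by Ern1, Atf6 and Eif2ak3 start the unfolded protein response, which raises chaperones and the machinery that removes misfolded proteins. Eif2ak3 encodes PERK, one of the kinases that also start the integrated stress response: translation slows in general while the factor ATF4 is made, and ATF4 switches on genes of amino acid supply and of recovery or cell death. Cells that secrete much matrix, such as mesenchymal cells of the heart, carry a constant load of collagen and other proteins through this pathway.

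Some members carry known stress elements in their promoters, and a few of these sites are shown because both arms of the response are read through them. The ER stress element, ERSE, was searched as CCAAT and CCACG with any 9 bases between them, and its short form ERSE-II as ATTGG and CCACG with any 1 base between them. The ATF4-type element, CARE, was searched as TGATGNAA, and UPRE as TGACGTGG. All were searched on both strands in RefSeq windows of 250 bases before and 50 bases from each gene's start (GRCm38.p6), and CCACG or its complement is common to ERSE, ERSE-II and UPRE. In the table, 35 of the 40 members had a window. ERSE was found in 8 of these 35, against 0.119% of all 32851 windows. ERSE-II was found in 2 against 0.0365%, CARE in 6 against 3.97%, and UPRE in none against 0.676%. At least 1 of these elements was found in 15 of the 35 members, and 20 had none. The sites of the genes that the values below turn on follow, read along the gene from 5′ to 3′, with the searched letters in capitals.
Hspa5, ERSE, chr2:34772020-34772048, plus strand: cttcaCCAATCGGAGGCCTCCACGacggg
Hsp90b1, distal ERSE, chr10:86705633-86705661, minus strand: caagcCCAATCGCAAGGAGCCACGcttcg
Hsp90b1, proximal ERSE, chr10:86705528-86705556, minus strand: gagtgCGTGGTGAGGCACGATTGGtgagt
Canx, ERSE, chr11:50325795-50325823, minus strand: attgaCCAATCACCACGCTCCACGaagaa
Syvn1, ERSE, chr19:6046527-6046555, plus strand: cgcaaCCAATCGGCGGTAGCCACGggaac
Dnajb11, ERSE-II, chr16:22857847-22857867, plus strand: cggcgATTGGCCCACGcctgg
Asns, CARE, chr6:7693220-7693237, minus strand: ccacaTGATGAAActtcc
Slc7a11, upstream stretch with 2 CARE sites, chr3:50443643-50443693, minus strand: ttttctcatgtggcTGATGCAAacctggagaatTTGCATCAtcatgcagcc
Herpud1, upstream stretch with CARE and then ERSE-II, chr8:94386299-94386408, plus strand: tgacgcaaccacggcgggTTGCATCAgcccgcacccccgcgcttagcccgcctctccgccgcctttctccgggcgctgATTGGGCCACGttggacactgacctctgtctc
Herpud1 was the only one of these members with both kinds of element. Calr, Pdia6, Dnajc3 and Creld2 also had an ERSE, and Atf3, Chac1 and Trib3 a CARE. A match describes these letters in this window and is not evidence of binding.

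The deposited values were ratios. Per probe set the divisor was the median of the 5 arrays or, where that was low, a floor, so a ratio compares clones on 1 probe set and gives no expression level. Probe sets are called measured here where the median ratio was exactly 1, or any clone exceeded 1, and the log2 ratios spanned more than 0.05. Of the 89 member probe sets 56 were measured, 27 lay at the floor in all clones and 6 were flat above it. This left 35 measured members, 18 of them on 1 probe set, and a gene's log2 ratios were averaged over its measured probe sets. The other 5, Creld2, Sel1l, Atf6, Atf3 and Chac1, could not be followed. Probe sets of the same gene differed in a clone's deviation with a standard deviation of 0.48 log2 units over 6681 pairs, which is 0.34 for a single probe set, while 18 hybridization controls varied by 0.08. Clones that lie within 0.02 log2 units of each other, at ratios that recur on other probe sets, share a common level, and their closeness measures nothing. Precision is limited by the number of arrays.

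The RNA controls differed between the arrays. With clone 20B set to 1, the Actb signal at the 5′ end over that at the 3′ end was 0.597 in clone 11B and 0.743 in clone 30, against 1.08 in clones 1D and 42. For Gapdh the same ratio was 0.893 in clone 11B and 0.966 in clone 30, with 1.12 and 1.05 in clones 1D and 42. The 18S signals of clone 11B were 0.411 to 0.555. Of the cell markers, Kit, the gene of c-kit, was measured on 1 probe set, with clone 20B highest at log2 0.24. Pou5f1 lay at the floor, and Ly6a, the gene of Sca-1, had no probe set of its own. All 7 endothelial markers and 5 of 9 cardiomyocyte markers lay at the floor in all clones, which does not show that they were silent. The 4 measured cardiomyocyte markers were Myh6, highest in clone 42 at log2 0.47, and Myh7, Actc1 and Tnnt2, highest in clone 30 at 0.33, 0.11 and 0.03. Of 7 haematopoietic markers 3 were measured, between -0.23 and 0.10. Sdc1, the only measured secretory cell marker, was highest in clone 30 at 0.68. Of 8 fibroblast and mesenchymal markers 4 were measured: in clone 42 Col3a1, Col1a1 and Vim were lowest, at log2 -6.33, -2.13 and -0.68, and Pdgfra highest, at 0.70. Of 5 smooth muscle markers 4 were measured, and they did not share 1 order of clones. Tagln and Acta2 were highest in clone 30, at 1.83 and 0.20, and Smtn in clone 11B, at 0.73. Myh11 lay between -0.07 and 0.004. Of 5 epicardial and mesothelial markers 2 were measured, Msln and Upk3b, both highest in clone 30, at 0.81 and 0.44. The part of these differences in the member values was not tested. In bulk RNA, fewer cells of a type and less RNA per cell cannot be told apart.

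Among the measured members 8 of 35 (22.9%) ranged over at least 1 log2 unit, that is 2-fold, between their highest and lowest clone, against 13.0% of all 9435 measured genes. They were Hyou1, Hsp90b1, Canx, Dnajb11, Sdf2l1, Herpud1, Wfs1 and Asns. A range of at least 1.5-fold was reached by 19 of 35 (54.3%), against 34.4% of all measured genes. By probe set, 12 of 56 (21.4%) ranged over 1 log2 unit or more, against 17.5% of all measured probe sets. The median range was 0.59 log2 units for the measured members and 0.41 for all measured genes. Of the 8 wide members 5 were chaperones or co-chaperones, Herpud1 acts in degradation, Wfs1 was grouped with the sensors, and Asns was the one from the integrated stress response. By arm, 7 of 20 measured members of the unfolded protein response and 1 of 15 of the integrated stress response ranged over 1 log2 unit or more, a contrast that was not tested. The filter had removed flat and floor-level probe sets beforehand, so these counts describe the measured members only. With every probe set averaged and no filter, 15 of 40 members (37.5%) reached 1.5-fold, against 11.7% of 18193 genes. As 35 of the 40 members but only 9435 of the 18193 genes were measured, these shares also reflect how many genes were measured at all. With each gene read from the probe set whose mean ratio was largest, the shares of members and of all genes lay close together, 6 of 35 (17.1%) against 16.6% at 2-fold and 42.9% against 38.7% at 1.5-fold. That choice of probe set depends on the ratios themselves and not on signal, for members and all genes alike. The count of 8 rested in part on single arrays: it was 5 (14.3%) without clone 11B, without clone 42 and with a pseudocount of 0.1, where the shares of all genes were 9.71%, 9.75% and 10.2%.

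**Figure D1:**
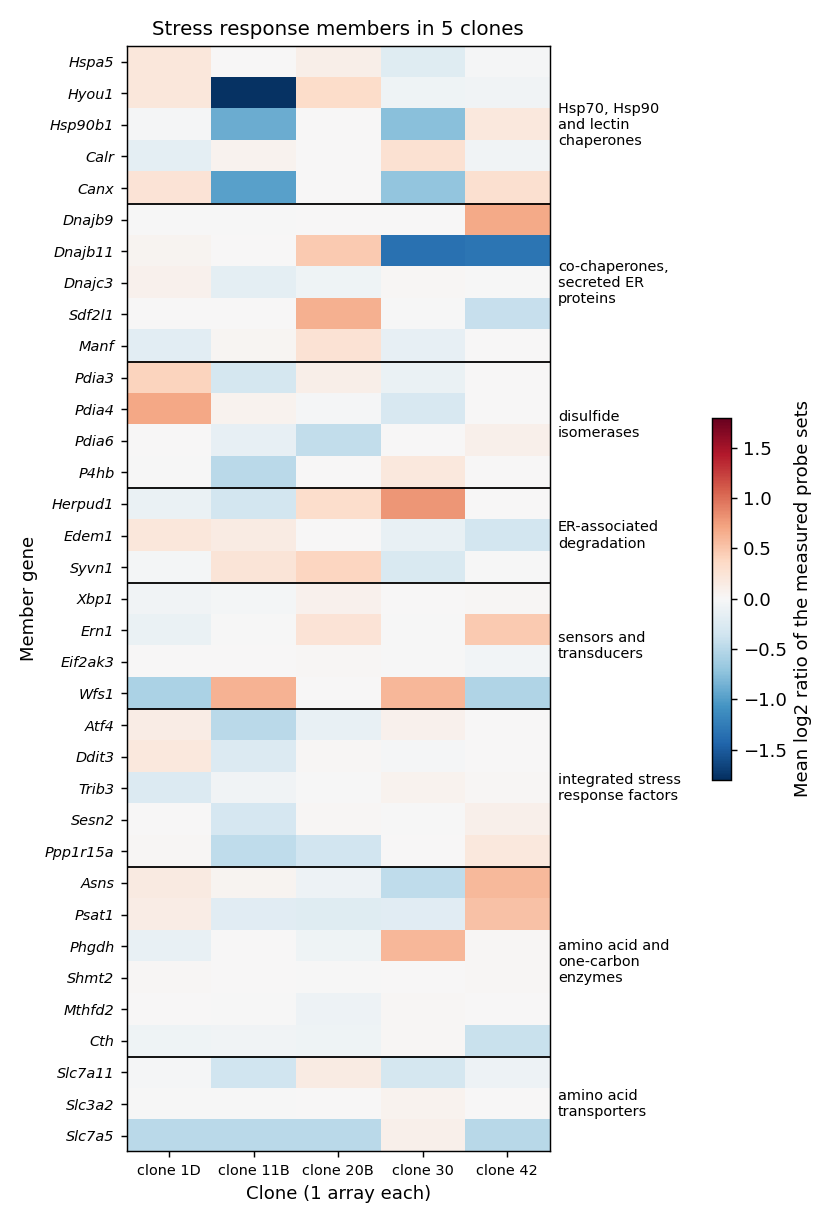
Rows are the 35 measured members, grouped by role, and columns the 5 clones with 1 array each; colour gives the mean log2 ratio of a gene's measured probe sets, blue below and red above 0. Hyou1 in clone 11B (-1.78) and Dnajb11 in clones 30 (-1.35) and 42 (-1.32) are the deepest blue, and no clone is red or blue throughout.

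The main ER chaperones did not move as a block. Hspa5, which encodes BiP, the Hsp70 chaperone that also keeps the stress sensors inactive, had ratios of 1.24, 1.00, 1.02, 0.825 and 0.948 in clones 1D, 11B, 20B, 30 and 42 on probe set 1416064_a_at. Probe set 1427464_s_at gave 1.29, 0.948, 1.07, 0.778 and 1.00 in the same order. Both placed clone 1D highest and clone 30 lowest, whereas 1447824_x_at placed clone 20B highest at 1.13 and clone 1D lowest at 0.958. Probe sets whose names end in _s_at or _x_at, such as the last 2, may detect other transcripts too. Averaged, Hspa5 ranged over 0.42 log2 units, about the median of all measured genes. Calr, the lectin chaperone calreticulin, also ranged little, over 0.45. All 3 of its probe sets agreed on clone 30 as highest, at ratios of 1.18 to 1.24, and on clone 1D as lowest, at 0.843 to 0.921.

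Hyou1, an Hsp70-related chaperone that helps BiP exchange nucleotides, had the largest range of all members, 2.12 log2 units, wider than 98.7% of the measured genes. On probe set 1423290_at its ratios were 1.32 in clone 1D, 0.112 in clone 11B, 1.48 in clone 20B, 0.892 in clone 30 and 1.00 in clone 42. On 1423291_s_at they were 1.00, 0.752, 1.08, 1.00 and 0.918. Clone 11B was lowest on both, the second being of the kind that may detect other transcripts, but the deviation from the median of the other clones was -3.36 on the first and -0.41 on the second.

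Hsp90b1 encodes GRP94, the Hsp90 of the ER. On probe set 1438040_a_at the ratios were 1.05 in clone 1D, 0.244 in clone 11B, 1.00 in clone 20B, 0.359 in clone 30 and 1.31 in clone 42, a 5.35-fold span. On 1415889_a_at they were 0.934, 1.19, 1.00, 0.986 and 1.00, so clone 11B was lowest on one probe set and highest on the other. The averaged deviation of clone 11B, -0.88, became 0.26 when each gene was read from the probe set whose mean ratio was largest, and the direction of Hsp90b1 in that clone is therefore not settled.

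Canx, the membrane-bound lectin chaperone calnexin, had ratios of 1.33, 0.307, 1.00, 0.413 and 1.33 in clones 1D, 11B, 20B, 30 and 42 on probe set 1422845_at. On 1415692_s_at they were 1.06, 0.843, 1.00, 0.897 and 1.11. On both, clone 11B was lowest, clone 30 next, then clone 20B, with clones 1D and 42 above them, and only the size differed (4.35-fold against 1.32-fold on the _s_at probe set). The probe sets of Hsp90b1 and Canx that gave the larger spans were low in clones 11B and 30, the clones with the lowest Actb ratios of 5′ to 3′ signal (0.597 and 0.743). The part of RNA quality in these values was not tested.

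**Figure D2:**
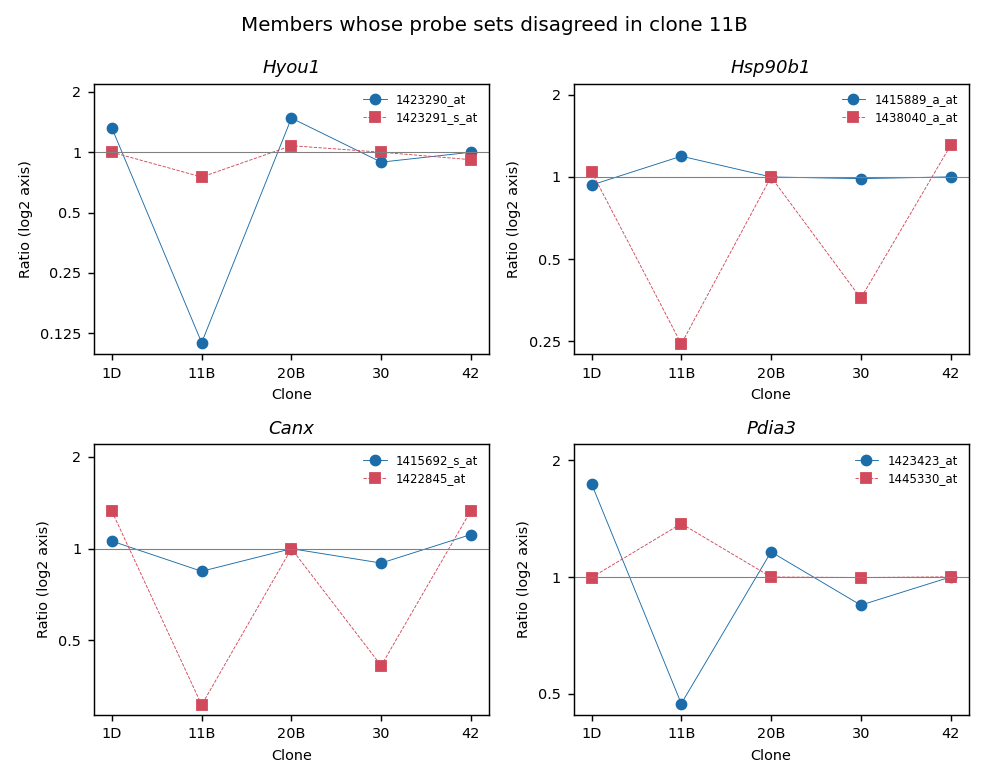
Each panel plots the ratio of 1 member in the 5 clones on a log2 axis, with 1 line per measured probe set (lines only join the points of a probe set). For Hyou1, Hsp90b1, Canx and Pdia3 one probe set drops in clone 11B, to 0.112, 0.244, 0.307 and 0.471, while the other lies between 0.752 and 1.37 there.

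Among the disulfide isomerases clone 1D was highest for both genes with the widest ranges. Pdia4 had ratios of 1.62, 1.04, 0.982, 0.82 and 1.00 in clones 1D, 11B, 20B, 30 and 42 on its only measured probe set, which put clone 1D 0.71 log2 units above the median of the others. Pdia3, which works with calnexin and calreticulin on glycoproteins, had 1.74, 0.471, 1.16, 0.846 and 1.00 on probe set 1423423_at. Its other probe set, 1445330_at, had 4 clones tied between 0.997 and 1.00 and clone 11B above them at 1.37. Across all members measured on several probe sets, 4 of 17 (23.5%) had probe sets that placed a clone at least 1 log2 unit apart, near the 21.1% of all such genes. These 4 were Hyou1, Hsp90b1, Canx and Pdia3, and in each the largest difference was in clone 11B. The probe sets of Hsp90b1 were also that far apart in clones 30 and 42, and those of Canx in clone 30. P4hb, the isomerase that is also a subunit of collagen prolyl hydroxylase, was lowest in clone 11B at 0.711 and highest in clone 30 at 1.14. Its other clones were tied at ratios that recur on 376 other probe sets, so the sizes are uncertain. Pdia6 was lowest in clone 20B at 0.736, with the other clones between 0.899 and 1.06.

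Among the co-chaperones and small ER proteins clone 20B was highest for 3 of 5 measured members, Dnajb11, Sdf2l1 and Manf, against 14.8% of all genes. Dnajb11, an Hsp40 partner of BiP with a role in secretory protein folding, was low in clones 30 and 42. Its ratios were 1.03 in clone 1D, 1.00 in clone 11B and 1.39 in clone 20B, but 0.393 in clone 30 and 0.401 in clone 42, a 3.53-fold span on its single probe set. Sdf2l1, a partner of Dnajb11 in the ER, was highest in clone 20B at 1.57 and lowest in clone 42 at 0.752. The remaining clones, 1D, 11B and 30, lay at 1.00, 1.00 and 0.991, ratios that recur on 1067 other probe sets, so the 2.08-fold span between clones 20B and 42 is uncertain in size. Dnajb9, a BiP partner induced by the IRE1 branch, was 1.61 in clone 42 while the other 4 clones were tied between 0.997 and 1.00. Clone 20B was also highest for Manf, a secreted ER stress protein, at 1.19, with clone 1D lowest at 0.877. Dnajc3, the inhibitor of eIF2α kinases known as P58IPK, ranged over 0.25 log2 units on average, and over 0.78 on 1449372_at, where clone 1D was 1.21 and clone 11B 0.706.

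In ER-associated degradation, which returns misfolded proteins to the cytosol, Herpud1 was the one member with a wide range on probe sets that agreed. Its ratios on 1448185_at were 0.876, 0.654, 1.13, 1.68 and 1.00 in clones 1D, 11B, 20B, 30 and 42. On 1435626_a_at they were 0.97, 0.971, 1.36, 1.79 and 1.00. Clone 30 was highest and clone 20B next on both. Against the median of the others clone 30 was 0.85 and 0.86 higher. Syvn1, the ubiquitin ligase HRD1, was lowest in clone 30 on both probe sets, at 0.766 and 0.887. Its highest ratios were 1.19 in clone 11B on 1428070_at and 1.46 in clone 20B on 1443609_s_at. Edem1, which extracts misfolded glycoproteins from the folding cycle, ran from 1.16 in clone 1D to 0.792 in clone 42. Sel1l, the partner of HRD1, had 5 probe sets, all at the floor.

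Among the sensors and transducers Xbp1 and Eif2ak3 had narrow ranges and Wfs1 a wide one. Xbp1, the factor activated by IRE1 splicing, ranged over 0.15 log2 units on its single measured probe set, with 3 others at the floor, and these values do not tell the spliced from the unspliced form. Eif2ak3, the gene of PERK, ranged over 0.07. Ern1, the gene of IRE1α, gave 0.851, 1.00, 1.42, 0.996 and 1.89 in clones 1D, 11B, 20B, 30 and 42 on 1437119_at, with clone 42 at 0.92 log2 units above the median of the others. Its other measured probe set, 1421240_at, ranged over only 0.05, so the averaged range was 0.59. Wfs1, the gene of wolframin, an ER membrane protein lost in Wolfram syndrome, was measured on 1 probe set. Clones 11B and 30 had 1.55 and 1.52, clone 20B 1.00, and clones 1D and 42 had 0.675 and 0.686. This is broadly the reverse of the placing of Canx, so the clones with low Actb ratios of 5′ to 3′ signal were the high ones for Wfs1.

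**Figure D3:**
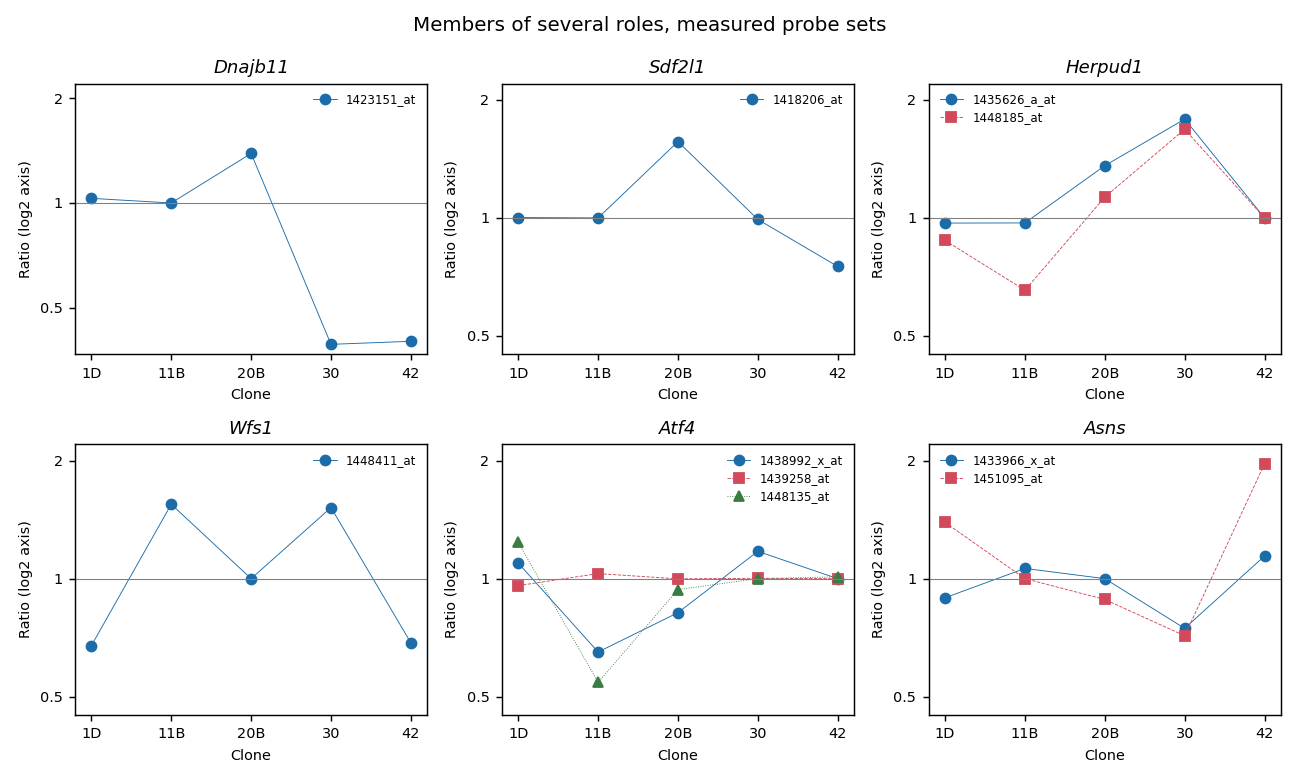
Each panel plots the ratio of 1 member in the 5 clones on a log2 axis, with 1 line per measured probe set. Dnajb11 is low in clones 30 (0.393) and 42 (0.401), both Herpud1 probe sets peak in clone 30 (1.79 and 1.68), Wfs1 is high in clones 11B and 30, and Asns peaks in clone 42 on both probe sets.

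The regulators of the integrated stress response were lowest in clone 11B more often than in any other clone. Atf4, the central factor of the response, had ratios of 1.24, 0.544, 0.938, 1.00 and 1.01 in clones 1D, 11B, 20B, 30 and 42 on 1448135_at. On 1438992_x_at they were 1.10, 0.65, 0.819, 1.17 and 1.00, and on 1439258_at all clones lay between 0.96 and 1.03. Those first 2 probe sets thus placed clone 11B lowest, by -0.89 and -0.69 relative to the median of the others, and the remaining one did not. Much of the control of Atf4 is translational, which an RNA array does not see.

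Ppp1r15a, or GADD34, the phosphatase subunit that ends the translational block, gave 1.01, 0.729, 0.791, 1.00 and 1.14 in the same order of clones. Sesn2, a stress-induced inhibitor of mTORC1, was also lowest in clone 11B on 1425139_at, at 0.661, with clone 42 at 1.14 and the rest tied near 1. Its other measured probe set, 1451599_at, had clone 11B at 1.00 with all clones between 0.989 and 1.04. Ddit3, the cell death factor CHOP, ran from 1.14 in clone 1D to 0.842 in clone 11B. Trib3, the pseudokinase that restrains ATF4, was the exception, lowest in clone 1D at 0.789 on 1426065_a_at. In clone 11B all 5 measured factors had values under the median of the others, with a median deviation of -0.31 log2 units, against -0.001 for all measured genes, of which 52.3% were under the median of the others. For Atf4 this held on 1448135_at (-0.89) and 1438992_x_at (-0.69). It did not hold on 1439258_at, where all clones lay between 0.96 and 1.03 and the deviation was 0.04. Averaged over the probe sets of a gene, each deviation was smaller than 1.5-fold. Those of Atf4 on 1448135_at and 1438992_x_at and of Sesn2 on 1425139_at (-0.60) were larger than that. Clone 11B also had the lowest Actb and 18S controls, whose part in these values was not tested.

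Among the enzymes of amino acid and one-carbon supply, clone 42 was highest for Asns and Psat1 and clone 30 for Phgdh. Asns, asparagine synthetase, had ratios of 1.39, 1.00, 0.885, 0.715 and 1.96 in clones 1D, 11B, 20B, 30 and 42 on 1451095_at, and 0.894, 1.06, 1.00, 0.747 and 1.14 on 1433966_x_at. Clone 42 was highest and clone 30 lowest on both. Psat1, a serine synthesis enzyme, was 1.45 in clone 42 and 1.10 in clone 1D, while clones 11B, 20B and 30 were tied between 0.863 and 0.872, below the floor. Phgdh, the enzyme before it in that pathway, was highest in clone 30 instead, at 1.40 on 1426658_x_at and 1.62 on 1454714_x_at, with a range of 0.73 log2 units against 0.74 for Psat1. All 4 probe sets of Phgdh and the measured one of Psat1 are _x_at or _s_at probe sets. The mitochondrial folate enzymes Shmt2 and Mthfd2 ranged over 0.02 and 0.11 log2 units. Cth, which makes cysteine, was lowest in clone 42 at 0.76, with the other clones between 0.948 and 1.01. Only clone 30 lay above the floor, so this difference is among values below it.

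Of the amino acid transporters, Slc7a11, the cystine importer xCT, separated the clones on 1420413_at. Its ratios there were 1.03 in clone 1D, 0.637 in clone 11B, 1.29 in clone 20B, 0.659 in clone 30 and 0.857 in clone 42, so only clones 1D and 20B lay above the floor. Its other measured probe set, 1443536_at, lay between 0.936 and 1.03. Slc7a5, the large neutral amino acid transporter LAT1, was 1.07 in clone 30 and between 0.709 and 0.716 in the other 4, which were tied below the floor. Slc3a2, the heavy chain shared by both transporters, ranged over 0.08 log2 units, with 4 clones tied.

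By clone, 11B was the lowest of the 5 for 12 of the 35 measured members (34.3%, against 13.2% of all measured genes) and the highest for 1, Wfs1 (2.86%, against 17.4%). A clone counted here only if it was separated from the next by more than 0.02 log2 units. Without that margin, clone 11B had a value under the median of the others for 24 of 35 (68.6%, against 52.3%). Some of these deviations were as small as -0.0007 for Eif2ak3 and -0.005 for Dnajb9. The median deviation of clone 11B over the 35 members was -0.03 log2 units. The 12 genes came from most roles: Hyou1, Hsp90b1, Canx, Dnajc3, Pdia3, P4hb, Herpud1, Atf4, Ddit3, Sesn2, Ppp1r15a and Slc7a11. These are averages, and another measured probe set of Hsp90b1, Pdia3 and Atf4 placed clone 11B highest, at 1.19, 1.37 and 1.03. Other measured probe sets of Dnajc3, Sesn2 and Slc7a11 did not place it lowest. On 1435626_a_at of Herpud1 it was tied with clone 1D. This count was 5 when genes were read from the probe set whose mean ratio was largest, against 12.0% of all genes, and 11 to 14 in the other settings tried. A low clone lowers a probe set's mean ratio. The largest-mean setting can therefore pass over probe sets on which clone 11B was low, for members and all genes alike. The share of all genes with clone 11B lowest nonetheless moved only from 13.2% to 12.0%. Several measured probe sets were present for 17 of 35 members and 3047 of 9435 genes, so these shifts are not fully comparable. The excess of clone 11B among the members thus depended on how probe sets were combined. The Actb and 18S controls were lowest in this clone too, and their part in the count was not tested. No other clone took so many lowest places: clone 1D had 7 (11.8% of all genes), clone 30 had 5 (16.3%), clone 42 had 4 (14.9%) and clone 20B had 2 (10.4%). Highest places were spread more evenly, with 9 in clone 42 (20.0% of all genes), 8 in clone 30 (20.7%), 8 in clone 20B (14.8%) and 7 in clone 1D (17.5%).

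**Figure D4:**
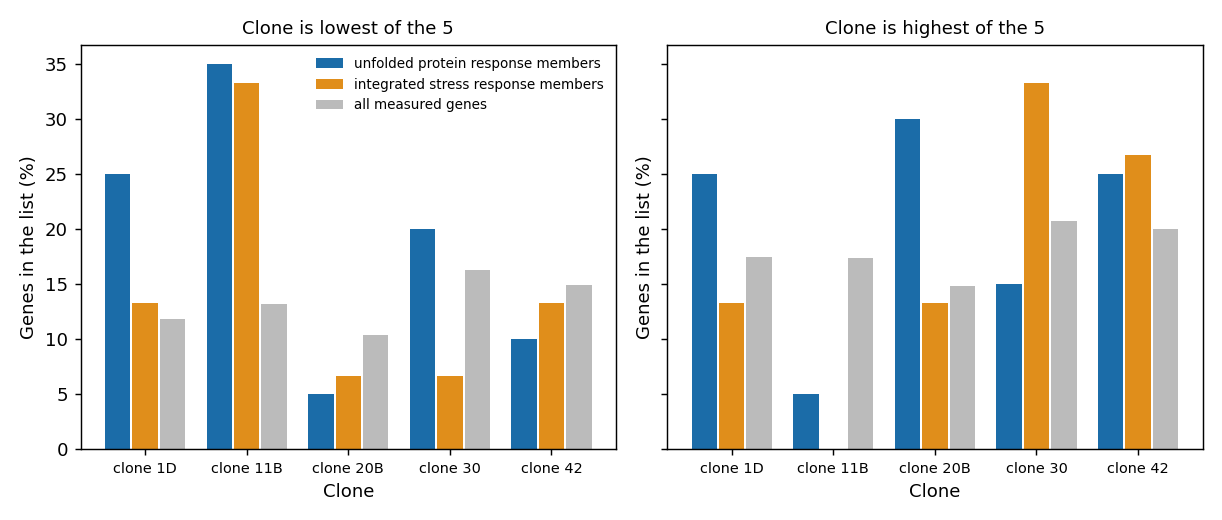
Bars give the percentage of measured genes for which a clone is the lowest (left) or the highest (right) of the 5 by more than 0.02 log2 units, for 20 unfolded protein response members, 15 integrated stress response members and all 9435 measured genes. Clone 11B is lowest for 35.0% and 33.3% of the member lists against 13.2% of all genes, and highest for 5.00% and 0% against 17.4%.

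Differences of at least 1.5-fold from the median of the other clones were few in every clone. In clone 11B they were 3 lower members (8.57%, against 3.48% of all measured genes), namely Hyou1, Canx and Hsp90b1. Wfs1 and Dnajb11 were higher there (2 members, against 3.28%). The Dnajb11 ratio in clone 11B was nevertheless 1.00, the median of the 5 clones. Dnajb11 counted in every clone because its low ratios in clones 30 and 42 (0.393 and 0.401) shift the median of the others. In clone 30 Dnajb11, Canx and Hsp90b1 were lower (3 members, against 5.29%) and Wfs1, Herpud1 and Phgdh higher (3 members, against 4.73%). In clone 42 Dnajb11 and Wfs1 were lower (2 members, against 3.12%). There 4 were higher (against 4.54%), Psat1 by 0.73, Dnajb9 by 0.69, Canx by 0.64 and Asns by 0.60 log2 units. Clone 1D had 3 higher (against 4.02%), Pdia4, Dnajb11 and Canx, and 1 lower (against 1.66%), Wfs1. Canx counted as higher in clones 1D and 42 because its low values in clones 11B and 30 likewise shift the median of the others. Its averaged log2 ratios were only 0.25 in clone 1D and 0.29 in clone 42, with clone 20B, the median, at 0. Clone 20B had 2 higher (against 2.99%), Dnajb11 by 1.13 and Sdf2l1 by 0.65, and none lower (against 1.35%). The median deviation of the 20 unfolded protein response members was -0.14 in clone 30 and 0.14 in clone 20B, and that of the 15 integrated stress response members lay between -0.01 and 0.03 in every clone. For all measured genes the medians were -0.01 in clone 30 and 0.002 in clone 20B. The member medians moved to -0.05 and 0.04 with every probe set averaged, and to -0.02 and 0.03 with the probe set whose mean ratio was largest, where that of clone 11B was 0.04.

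Members that share a promoter site did not share 1 order of clones. Of the 8 members with an ERSE 7 were measured, with ranges from 0.25 to 1.26 log2 units, and 5 of these 7 were under the median of the others in clone 11B and 4 in clone 30, where 52.3% and 57.5% of all measured genes were. Both members with an ERSE-II had wide ranges, but in clone 30 Herpud1 was high and Dnajb11 low. Of the 4 measured members with a CARE, 3 lay below the median in clone 11B (52.3% of all genes), and Asns lay 0.01 above it. Such small counts near these shares say nothing about the sites.

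Other genes of the pathway were taken from lists not drawn from the members. In the list of further ER folding, translocation and degradation genes, 6 of 43 measured genes (14.0%) ranged over 1 log2 unit or more, close to 13.0% of all genes. In the list of further integrated stress response genes it was 12 of 45 (26.7%), the other arm than among the members. That contrast rested on the gene count at 2-fold. At 1.5-fold the shares were 48.8% in the ER list and 46.7% in the integrated stress response list. By probe set at 1 log2 unit they were 22.2% and 24.3%. In the ER list clone 11B was lower by at least 1.5-fold for 3 of 43 (6.98%) and lowest for 7 (16.3%, near the 13.2% of all genes). Counted without a margin, it was below the median of the others for 35 (81.4%, against 52.3% of all genes). The median deviation was only -0.03 log2 units, and some of the 35, such as Pdia5 and Os9 at log2 -0.003, lay at the common level. Clone 30 was lowest for 13 of 43 (30.2%, against 16.3%). In the integrated stress response list clone 11B was lower by at least 1.5-fold for 8 of 45 (17.8%, against 3.48% of all genes) and lowest for 13 (28.9%), and clone 30 was higher by that much for 7 (15.6%, against 4.73%).

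Nupr1, a stress-induced chromatin protein, had the largest range of both lists, 2.51 log2 units. Its ratios on 1419665_a_at were 1.00, 0.309, 1.78, 2.19 and 0.276 in clones 1D, 11B, 20B, 30 and 42, and on 1419666_x_at 1.00, 0.401, 1.33, 1.85 and 0.476. The probe sets agreed that clones 30 and 20B were high and clones 11B and 42 low. Erlec1, an ER lectin of glycoprotein degradation, shared the low values of Dnajb11 in clones 30 (0.383) and 42 (0.405) but was high in clone 11B, at 2.00. Jdp2, a bZIP repressor related to ATF3, was 2.93 in clone 30 and 0.723 in clone 11B. Ufd1, a cofactor of the p97 segregase in ER-associated degradation, was 0.516 in clone 30 and 1.45 in clone 1D.

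Vldlr, a lipoprotein receptor induced by ATF4, was highest in clone 42, at 2.04 on 1417900_a_at and 2.06 on 1434465_x_at. Cebpb, a bZIP partner of ATF4 and CHOP, was lowest in clone 11B on both probe sets, at 0.626 and 0.362. The aminoacyl-tRNA synthetase genes Nars and Cars, for asparagine and cysteine, were lowest there as well. Nars was 0.56 in clone 11B and 1.38 in clone 42. Cars was 0.368 on 1452394_at and 0.845 on 1427330_at in clone 11B, and clone 30 was next lowest on both, at 0.502 and 0.892. This repeats the placing of Canx on its 2 probe sets, and the Actb controls of the same clones were 0.597 and 0.743. The part of RNA quality in the values of Cars was not tested.

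**Figure D5:**
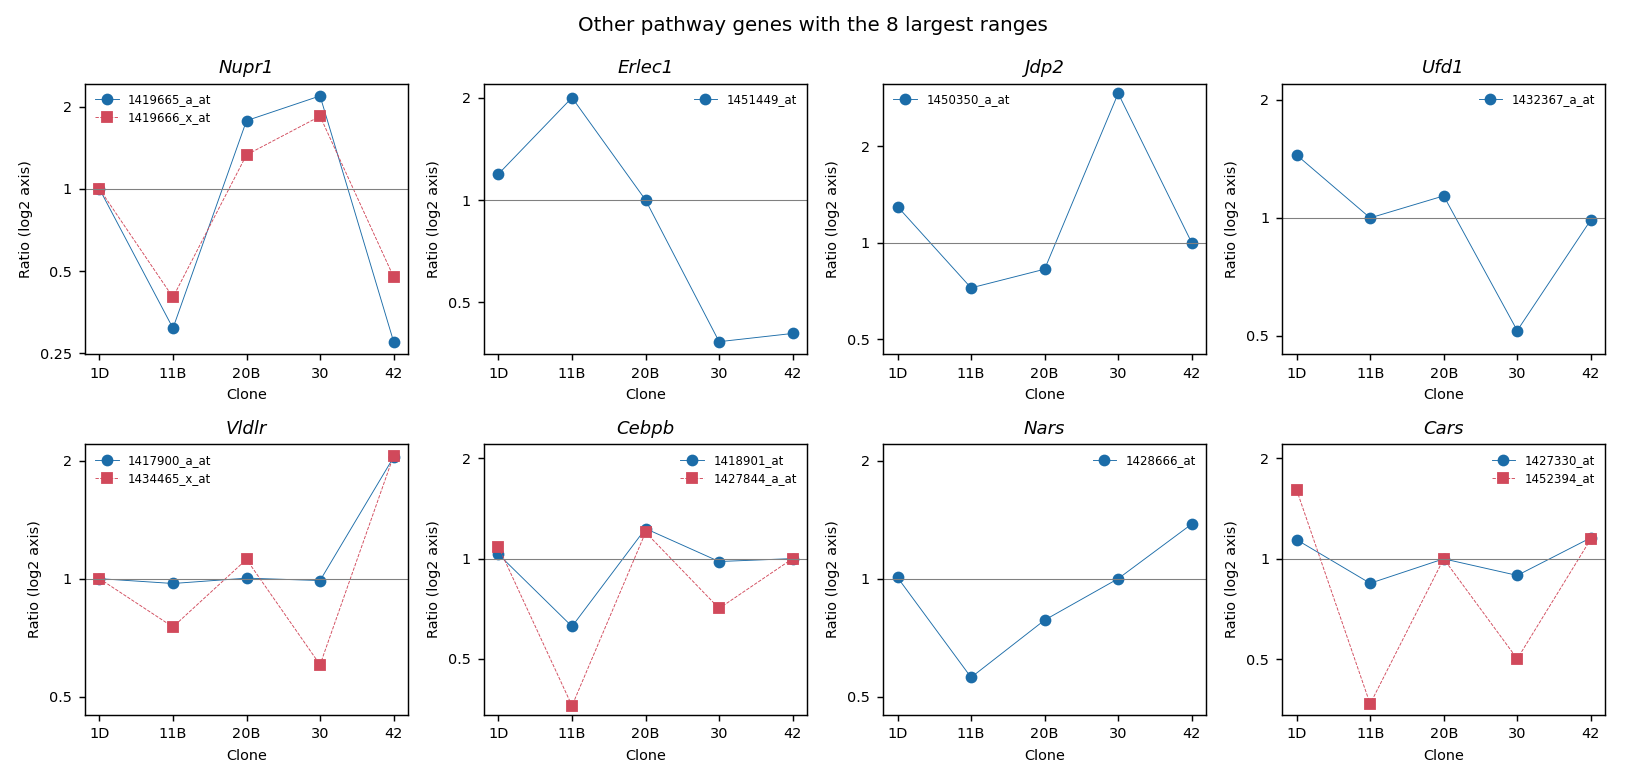
Each panel plots the ratio of 1 further pathway gene in the 5 clones on a log2 axis, with 1 line per measured probe set, for the 8 genes with the largest ranges. Nupr1 is high in clones 20B and 30 and low in clones 11B and 42 on both probe sets, Vldlr peaks in clone 42, and Cebpb, Nars and Cars are lowest in clone 11B.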

How the data were processed

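Total RNA from 5 clones was measured on Affymetrix expression arrays, 1 per clone. The submitters' processing notes name RMA and GCRMA and give neither version nor role. The authors' deposited values are taken as a linear ratio per probe set, on 45101 probe sets. This reading comes from the values, whose median over the arrays was exactly 1 on 18926 and above 1 on 0. The division by the median or by a floor is not given in the sources used here. Probe sets were named from the platform annotation, and gene IDs of all 40 members matched the RefSeq table of GRCm38.p6. Measured probe sets of a gene were averaged as log2 ratios, and each clone was set against the median of the other 4 (Python 3.11.15, numpy 2.4.6, pandas 2.3.3). With 1 array per clone no test was computed, and call rules are folds of 1.5 and 2. Calculations were tested on simulated data. The members, lists and call rules were chosen with earlier results of these data known. Values in each clone were given for members ranging over at least 1 log2 unit, for the members of each role with the widest ranges, and for some others by choice after seeing the values. Of the further pathway genes those with the 8 largest ranges were named. The alternatives tried were other ways to combine probe sets, other filters, a pseudocount, other scaling and leaving out each clone.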

Additional observations from a re-analysis of the deposited data

How the results depend on the processing

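No paired analysis was possible because each clone has 1 array and the labels carry no replicate numbers. The number of members ranging over at least 1 log2 unit, 8, was 5 with a pseudocount of 0.1 and 5 to 8 when 1 clone at a time was left out (leave-one-out). Its lowest values came without clone 11B and without clone 42. The number with a range of at least 1.5-fold, 19, stayed within a factor of 1.5 in every alternative, at 14 to 17 with 1 clone left out. The number of members with clone 11B lowest, 12, was examined under the same alternatives after seeing the data and was 5 when each gene was read from its probe set with the largest mean ratio. Because a low clone lowers the mean ratio, that setting can pass over probe sets with a low clone 11B. The share of all genes with clone 11B lowest moved only from 13.2% to 12.0% there. The deviation of Hsp90b1 in clone 11B reversed to 0.26 in that setting, by the choice between 2 probe sets that disagree. The median deviation of the unfolded protein response members lay between -0.16 and -0.02 in clone 30 and between 0.03 and 0.18 in clone 20B over the alternatives. Signal over background could not be read from ratios, so members at the floor have no lower bound.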
